A study of Mus musculus with 21 samples.

Results

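Between postnatal day 0 (P0) and postnatal day 16 (P16), the microRNAs (miRNAs) of the mouse cochlea and of the superior olivary complex (SOC), an auditory relay in the brainstem, change in abundance. The values below describe, miRNA by miRNA, whether the P16 vs P0 change differed between the organs, tested as an organ by time interaction. The fit used 15 of the 21 libraries of the series, with 4 libraries of the SOC at P0, 3 of the SOC at P16, 4 of the cochlea at P0 and 4 of the cochlea at P16. A miRNA was tested if 2 or more replicates of either age exceeded 1 CPM (counts scaled to the library's total), and this in each organ. Of the 1647 miRNAs listed, 797 met this condition in the cochlea, 672 in the SOC and 483 in both organs, and these 483 were tested.

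The study followed the miRNAs of both organs by small RNA sequencing from before birth until after the onset of hearing. All mice were WT, untreated and of both sexes. Cochlear samples were inner ear sensory epithelium of C57BL/6JOlaHsd mice, and SOC samples were neuronal tissue of C57Bl6/J mice, each sample pooled from several animals and the SOC pools of P16 from fewer animals than those of P0. For the cochlea, RNA came from a Direct-zol kit and libraries from the SMARTer smRNA-Seq kit, and for the SOC from the innuPrep miRNA kit and Illumina TruSeq small RNA kit. Organ, strain and kits therefore cannot be told apart, so levels are never compared between the organs, and only changes within an organ are set against each other. For the SOC, P0 mice were decapitated, whereas P16 mice were first killed with carbon dioxide. Age and way of killing therefore cannot be told apart in the SOC changes.

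A miRNA guides the silencing complex to messenger RNAs that pair with its seed, the bases near its 5′ end. The cluster of miR-183, miR-96 and miR-182 is transcribed as a unit in sensory cells such as the hair cells of the cochlea, and seed mutations of miR-96 cause deafness in mice and humans. Between the ages compared here, hair cells begin to respond to airborne sound, the SOC begins to receive sound-evoked input, and its axons become myelinated.

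The miRNAs whose change differed between the organs carry the sequences that follow, printed 5′ to 3′ as RNA with the seed (bases 2 to 8) in capitals. A mature sequence from RefSeq, build GRCm38.p6, matched 17 of the 23 miRNAs called below and 423 of the 483 tested. The called miRNAs miR-1a-3p, miR-140-5p, miR-375-3p, miR-376c-3p, miR-383-5p and miR-1927 are given by name only. The 17 seeds printed are all different, so no 2 of these miRNAs form a seed family. The first set holds miRNAs whose change was lower in the SOC, and opens with the 3 members of the sensory cluster.
miR-96-5p: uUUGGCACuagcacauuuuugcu
miR-182-5p: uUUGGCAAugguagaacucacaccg
miR-183-5p: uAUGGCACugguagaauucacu
miR-148a-3p: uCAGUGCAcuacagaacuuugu

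The second set holds miRNAs whose change was higher in the SOC, with the 2 arms of the miR-877 hairpin first, since both arms were called.
miR-877-5p: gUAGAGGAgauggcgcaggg
miR-877-3p: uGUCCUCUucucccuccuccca
miR-3102-3p.2-3p: cUCUACUCccugccccagcca
miR-338-5p: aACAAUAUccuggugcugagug
miR-935: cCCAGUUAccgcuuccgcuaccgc
miR-181b-5p: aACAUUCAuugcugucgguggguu
miR-323-3p: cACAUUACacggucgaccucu
miR-409-3p: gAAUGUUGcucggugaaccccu
miR-3099-3p: uAGGCUAGagagagguugggga
miR-99b-3p: cAAGCUCGugucuguggguccg

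The last set holds called miRNAs with so few counts in a group that they are described by counts below.
miR-99a-5p: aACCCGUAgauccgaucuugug
miR-135b-3p: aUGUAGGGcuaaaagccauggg
miR-212-3p: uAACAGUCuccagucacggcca

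Depth differed widely between the organs. A library of the SOC held between 8915671 and 17741834 counts at P0, with a median of 11709246, and between 8309669 and 12833264 at P16, where the median was 9956051. A cochlear library held between 180671 and 207336 counts at P0, with a median of 188532.5, and between 124400 and 199418 at P16, where the median was 171320.5. Levels are given as normalized CPM, CPM over a library's total multiplied by its TMM factor, which edgeR chooses so that most miRNAs keep their level between libraries. The TMM factors were 0.347 to 0.550 in the SOC and 1.46 to 2.34 in the cochlea, so normalized CPM sum to different totals and have a different scale in each organ. Unless said otherwise, whether ages overlap is read from normalized CPM, and shares of the library totals can give another answer. A group in which every library held 3 counts or fewer is called at the floor. In normalized CPM, 3 counts averaged 0.520 in the SOC at P0, 0.818 at P16, 7.42 in the cochlea at P0 and 9.49 at P16. Of the 483 miRNAs tested, 151 had a group at the floor. Floors cover counting error only, and PCR copies of a molecule are counted as separate reads.

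The SOC libraries stood apart in 3 sets, defined by their own counts and named in no label. In set A, P0 replicates 2 and 3, miR-99b-5p took 19.6% and 17.2% of the counts, against 1.43% to 3.84% in the other SOC libraries. Set C, P0 replicate 4 and P16 replicates 2 and 3, had 0.316%, 0.322% and 0.277% of counts on miR-191-5p, against 3.84% to 8.15% in the others. Set B held replicate 1 of each age. Set A has no P16 library, so with the set as a covariate the SOC change rests on the 2 P0 and 3 P16 libraries of sets B and C. The neuronal miRNAs listed here show the split, though not all in the same direction: their summed level, led by miR-124-3p or miR-138-5p, was 31761, 27902, 29801 and 101356 normalized CPM in P0 replicates 1 to 4 and 47594, 122353 and 128429 in P16 replicates 1 to 3. In this sum the set C libraries of both ages lay above all the others, whereas for the list member miR-128-3p, at 7086, 4883, 5537 and 759.7 and 8525, 1049 and 1139, they lay below all the others. Called differences printed below are followed by their value once the set is a covariate in the fit. The sets were drawn from the same counts that were tested, so these values and their FDRs are no independent support for a call.

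The markers of the labelled tissues were present. In the cochlea, the 4 tested members of the sensory cluster summed to 16957, 16496, 16186 and 14803 normalized CPM at P0 and 15958, 7480.5, 17214 and 16001 at P16, nearly all of it miR-183-5p. The 6 tested epithelial miRNAs summed to 4705, 4446, 3757 and 4212 at P0 and 4396, 1709.8, 3126 and 3997 at P16, with miR-429-3p or miR-200b-5p the most abundant. In each organ these lists had counts in every library, except that 1 member of the sensory cluster was at 0 in SOC P16 replicate 2. The neuronal list, led in the SOC by miR-138-5p or miR-124-3p and in the cochlea by miR-128-3p at P0 and miR-124-3p at P16, summed to 402, 291, 272 and 307 normalized CPM in the cochlea at P0 and 547, 599.8, 635 and 547 at P16, and 2 to 7 of its 15 members had 0 counts in each cochlear library. In the SOC, 1 member was at 0 in P16 replicate 2. The Hox-cluster list (miR-10, miR-196 and miR-615), a mark of the hindbrain and spinal cord, had 1 of 9 miRNAs tested, miR-615-3p. Fewer cells of a type and less RNA per cell cannot be told apart in such bulk samples.

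Within the SOC, 54 of the 483 miRNAs (11.2%) were higher and 20 (4.14%) lower at P16 than at P0, at an FDR under 0.05 by edgeR's quasi-likelihood test. Within the cochlea, 28 (5.8%) were higher and 31 (6.42%) lower. The changes combined in few miRNAs: 12 rose in both organs, 2 fell in both, and 0 moved in opposite directions with both changes called. Of the rest, 42 rose and 18 fell in the SOC alone, 16 rose and 29 fell in the cochlea alone, and 364 passed in neither. Across the 483 miRNAs, the SOC change and the cochlear change had a Pearson r of 0.20 and a Spearman rho of 0.25. The changes come from different libraries, but miRNAs are not independent replicates, so these correlations are a description.

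The difference between the organs was called for 23 of the 483 miRNAs (4.76%), with a higher change in the SOC in 14 and a lower one in 9. At an unadjusted p under 0.05 there were 121. With the SOC library set as a covariate, 89 were called (18.4%), 50 higher and 39 lower, which included 22 of the 23 and 67 others. Of the 23, 8 were among the miRNAs that fell in the cochlea alone, 6 among those that fell in the SOC alone, 5 among those that rose in the SOC alone, 3 among those that rose in the cochlea alone, and 1 had risen in both organs. Of the 332 miRNAs with no group at the floor, 18 were called (5.42%), 11 with a higher and 7 with a lower change in the SOC. P-values measure the spread between these samples of pooled tissue and nothing beyond it.

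**Figure D1:**
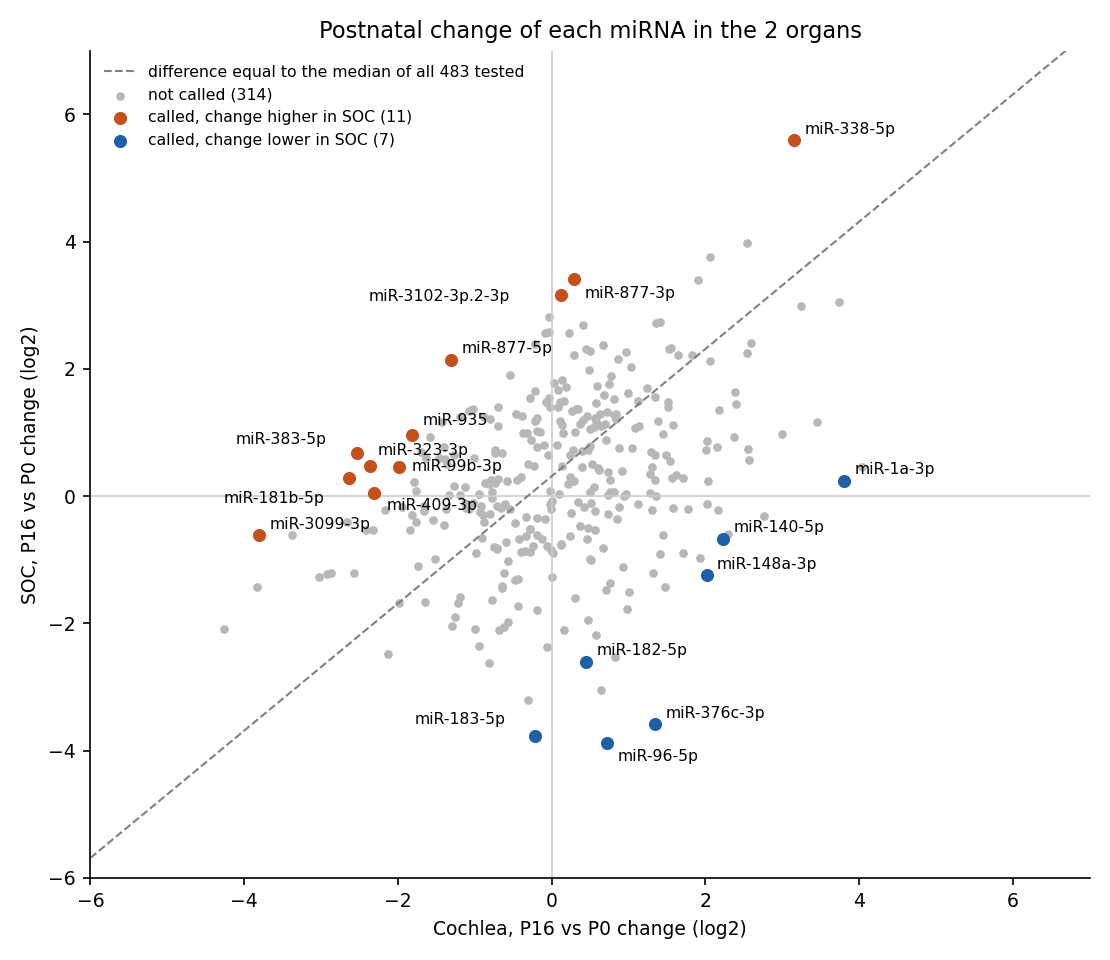
P16 vs P0 change (log2) in the cochlea, horizontal, and in the SOC, vertical, of the 332 miRNAs with no group at the floor, 1 point each. The 11 called miRNAs with a higher change in the SOC lie above the dashed line, which marks the median difference of all 483 tested, and the 7 with a lower change lie below it.

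How P16 is scaled to P0 within each organ sets the 0 of the difference, while a constant factor between the organs cancels. Over all 483 miRNAs, the median difference was 0.31 (log2) with TMM factors over the 15 libraries and -0.03 with TMM factors within each organ. It was -0.08 with RLE size factors and -0.02 with library totals. Each difference is therefore also given relative to the median of 0.31. The model moved the median too: limma-voom, with the same TMM factors over the 15 libraries, gave 0.74. The split into higher and lower changes moved with the scaling, from 14 and 9 to 14 and 17 of 31 calls within each organ, 7 and 13 of 20 with RLE factors and 9 and 11 of 20 with totals. All 23 called differences kept their direction with each of these scalings. RLE factors ended the calls of miR-1927, miR-212-3p, miR-338-5p, miR-375-3p, miR-409-3p, miR-877-3p and miR-99b-3p, totals those of miR-1927, miR-212-3p, miR-338-5p, miR-375-3p and miR-99b-3p, and TMM factors within each organ those of miR-1927 and miR-338-5p. The set covariate ended 1 call, that of miR-375-3p. A separate fit of each organ ended 4, those of miR-183-5p, miR-1927, miR-338-5p and miR-375-3p. DESeq2 called all 23 among 61, and limma-voom all 23 among 277. Here and below, limma-voom was fitted with sample quality weights, which give less weight to libraries that deviate more. The split turned toward lower changes in the SOC with other handling of low counts. It was 4 higher and 18 lower among 22 calls with SOC counts thinned to the cochlear depth. With no filter it was 2 and 10 of 12, and with at least 10 counts in every library 2 and 11 of 13. The median difference in these fits was -0.28, -0.01 and -0.08. DESeq2 (24 higher and 37 lower) and a separate fit of each organ (15 and 21) turned it too, but limma-voom (176 and 101) did not.

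Thinning kept the calls of miR-140-5p, miR-148a-3p, miR-182-5p, miR-183-5p, miR-1a-3p, miR-323-3p, miR-376c-3p, miR-383-5p and miR-877-5p, 9 of the 23, and ended the others. It lowered the difference of miR-935 from 2.77 to 1.29 and that of miR-99b-3p from 2.44 to 1.44. With no filter, 7 calls were kept, those of miR-135b-3p, miR-182-5p, miR-183-5p, miR-1a-3p, miR-375-3p, miR-376c-3p and miR-96-5p. With at least 10 counts in every library, 10 of the 23 were tested, and the calls of miR-323-3p, miR-338-5p, miR-409-3p and miR-877-3p ended.

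Single libraries decided how many differences were called. Without SOC P0 replicate 4, the count rose from 23 to 108, and without SOC P16 replicate 1 to 68. It fell to 11 without SOC P0 replicate 2, to 11 without SOC P0 replicate 3, to 13 without cochlea P0 replicate 1, to 11 without cochlea P16 replicate 4 and to 1 without cochlea P0 replicate 4. By edgeR it was 0 without SOC P16 replicate 2 (91 at an unadjusted p under 0.05), SOC P16 replicate 3 (94), cochlea P0 replicate 2 (102), cochlea P0 replicate 3 (102), cochlea P16 replicate 1 (100) or cochlea P16 replicate 3 (98), where the lowest FDR lay between 0.0529 and 0.0664. So each of the 23 calls was lost without at least 1 library. In all 15 such fits, each of the 23 kept its direction and an unadjusted p under 0.05. DESeq2 and limma-voom were run on all 15 libraries only, where they called 61 and 277.

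**Figure D2:**
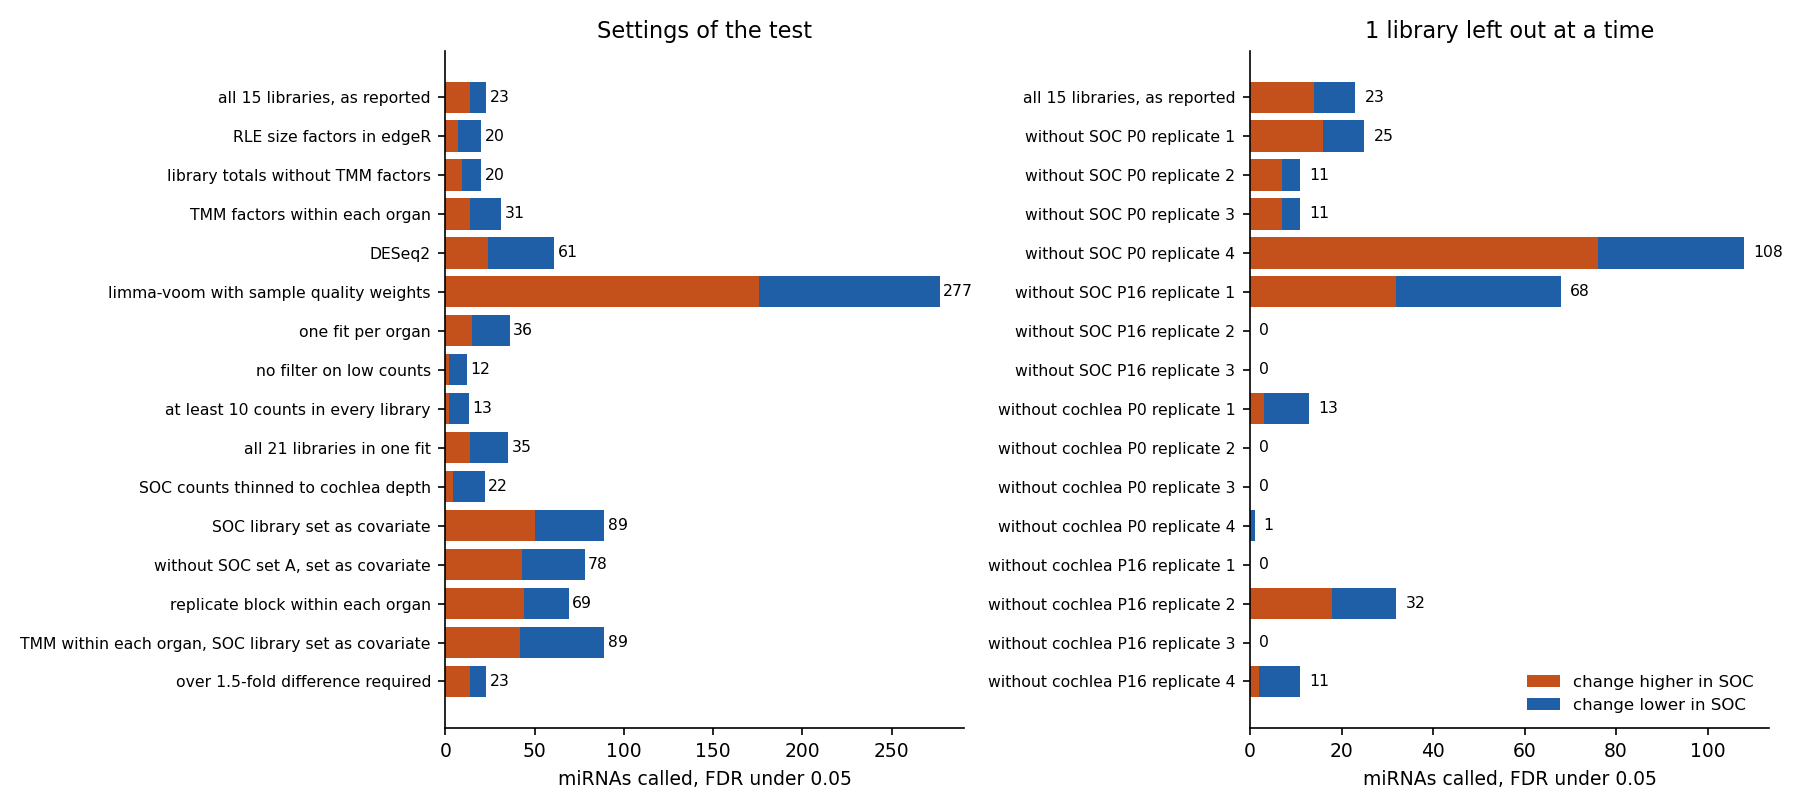
Number of miRNAs whose P16 vs P0 change was called different between the organs (FDR under 0.05), stacked by direction, under each setting of the test on the left and with 1 library left out at a time on the right. Counts run from 12 to 277 on the left and from 0 to 108 on the right, against 23 as reported.

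On chromosome 6 (GRCm38.p6, minus strand) the sensory cluster has the hairpins of miR-183 at chr6:30169668-30169737, miR-96 at chr6:30169446-30169551 and miR-182 at chr6:30165918-30165992, none of them inside an annotated gene. In the SOC, miR-182-5p stood at 25149.5, 27591, 22561 and 7580.0 normalized CPM at P0 and at 5581, 1189 and 3464 at P16. The cochlea gave 861, 623, 560.4 and 585 at P0 and 1202, 321, 1213 and 855 at P16. Every SOC P16 library lay below every SOC P0 library, with set C P0 replicate 4 nearest to them, whereas the cochlear groups overlapped, with P16 replicate 2 the lowest of all. On the log2 scale miR-182-5p changed by -2.60 (SE 0.62) in the SOC and by 0.45 (SE 0.53) in the cochlea, a difference of -3.05 (SE 0.80, FDR 0.0318), or -3.37 relative to the median of all differences. For miR-183-5p, the SOC libraries held 3794, 26243, 22189 and 2702 normalized CPM at P0 and 1609.8, 455 and 940.4 at P16, and the cochlear libraries 15928, 15745, 15449 and 13994 at P0 and 14631, 7067, 15909 and 15089.7 at P16. In the SOC the ages did not overlap, but the set A libraries at P0, replicates 2 and 3, were several-fold above replicates 1 and 4. In the cochlea, every library but P16 replicate 2 held a similar level, and the ages overlapped. miR-183-5p changed by -3.78 (log2, SE 0.76) in the SOC and by -0.21 (SE 0.60) in the cochlea, a difference of -3.56 (SE 0.93, FDR 0.0318) and of -3.88 relative to the median. With the set covariate, this difference shrank to -1.44 (FDR 0.034), since the comparison then leaves set A aside, while miR-182-5p kept -2.36 (FDR 0.00661).

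miR-96-5p measured 55.0, 99.8, 64.3 and 12 normalized CPM in the SOC at P0 and 4.45, 1.67 and 5.50 at P16. Its cochlear values were 14.2, 16.3, 8.41 and 16.8 at P0 and 35.3, 3.45, 26.7 and 26.0 at P16. The SOC ages did not overlap. The cochlear ages did, and the cochlear values rest on 6, 7, 3 and 7 counts at P0 and 14, 1, 9 and 7 at P16. This gave a log2 change of -3.87 (SE 0.79) in the SOC, 0.72 (SE 0.72) in the cochlea, and a difference of -4.60 (SE 1.04, FDR 0.0185), or -4.91 relative to the median of all differences. It was -3.35 (FDR 0.00913) with the set covariate. The other arm of the miR-183 hairpin, miR-183-3p, changed by -1.68 in the SOC and -1.22 in the cochlea, neither change called, and its difference of -0.46 (FDR 0.778) was not called. So 3 of the 4 tested members of the cluster, of 6 listed, had a called difference, all lower in the SOC. The cluster's summed level in the SOC was 29009, 53942, 44822 and 10300.0 normalized CPM at P0 and 7201, 1646 and 4412 at P16, led by miR-182-5p.

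**Figure D3:**
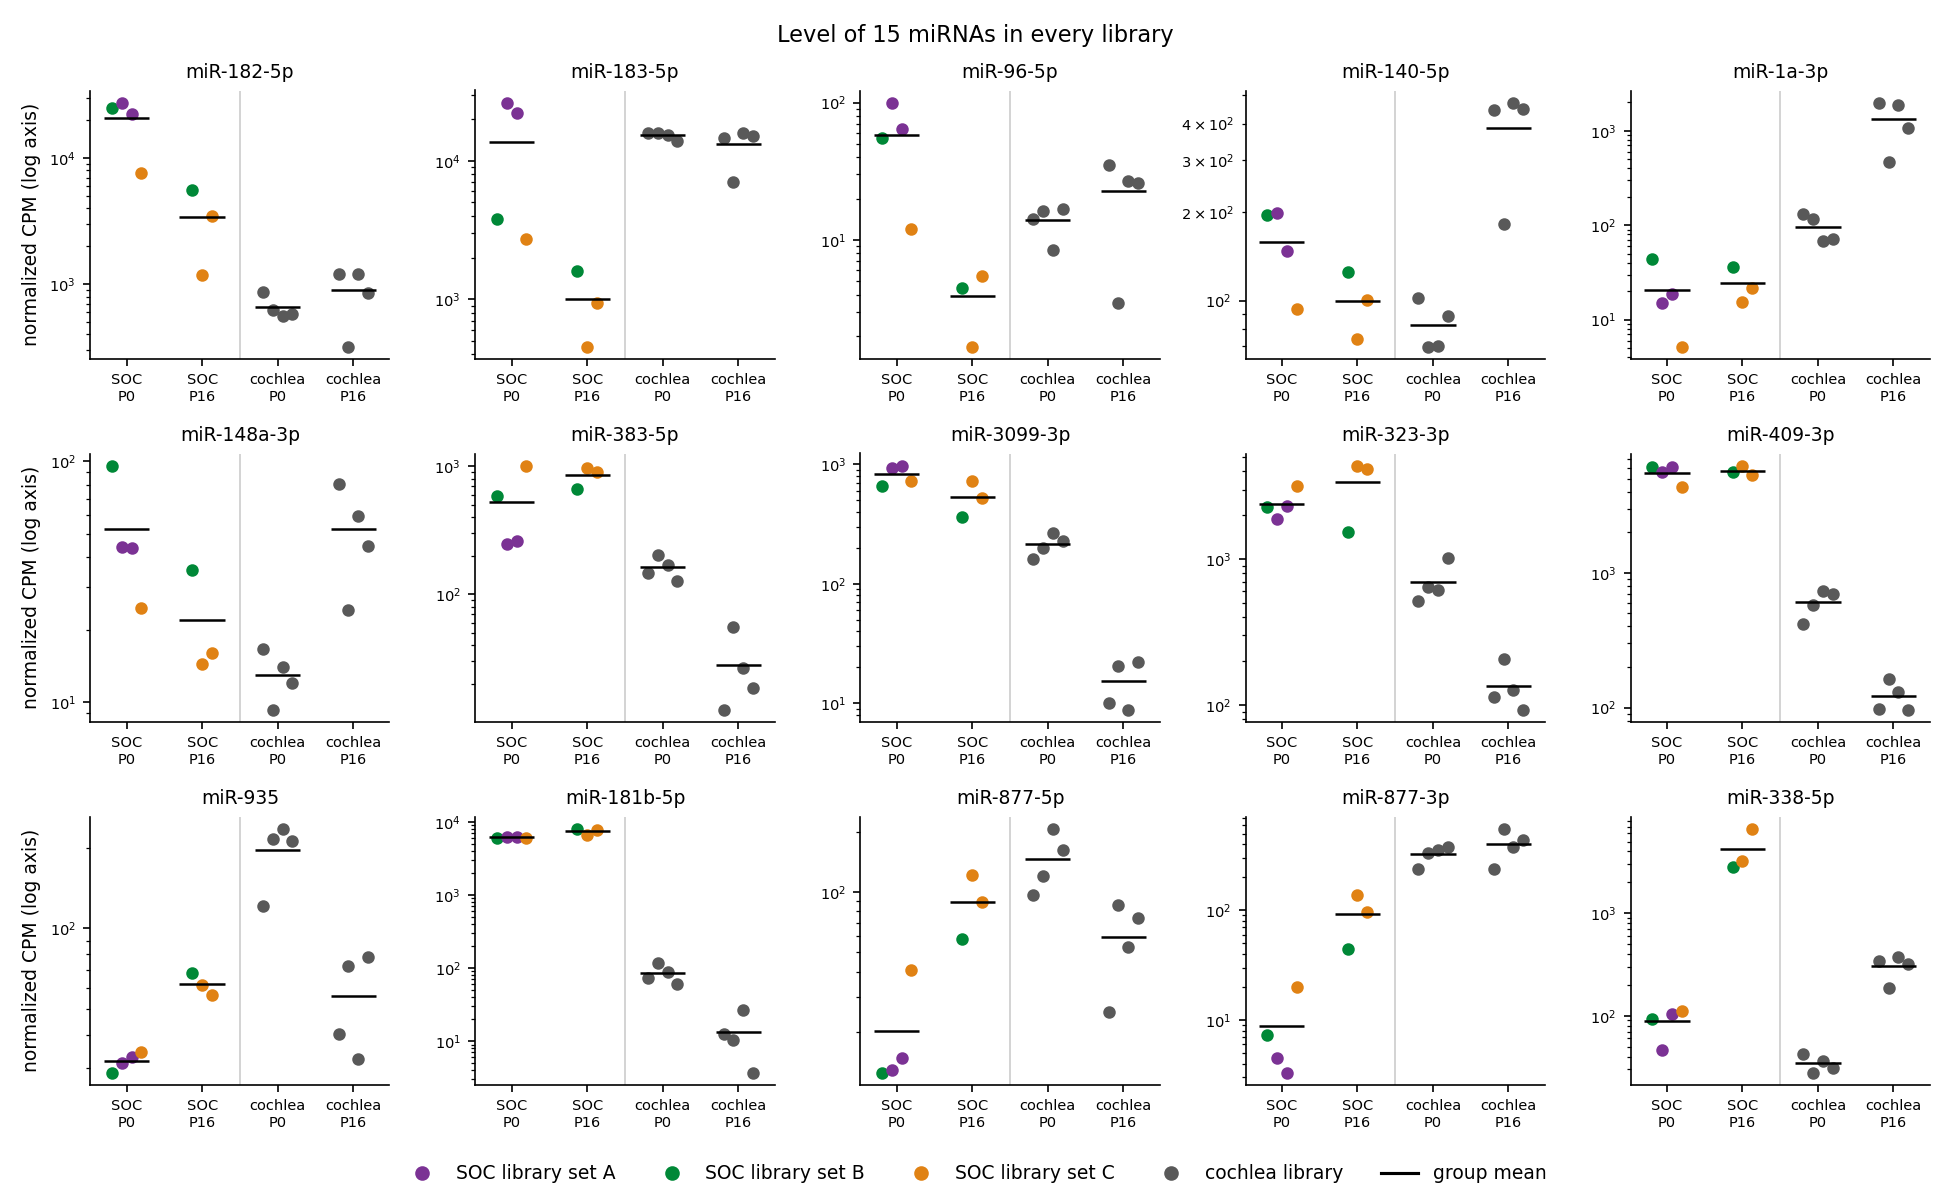
Normalized CPM (log axis) of 15 called miRNAs in each of the 15 libraries, 1 point per library and a bar at the group mean, with SOC points coloured by library set. In the top left panels the SOC points of P16 lie below those of P0 while the cochlear ages overlap, and in the middle row, from miR-383-5p to miR-409-3p, the cochlear points of P16 lie below those of P0 while the SOC ages overlap.

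A further 3 called miRNAs rose in the cochlea, with no called change in the SOC. In the SOC, miR-140-5p stood at 196, 198, 147 and 93.8 normalized CPM at P0 and at 125, 74.3 and 100.2 at P16. The cochlea gave 102, 69.8, 70.0 and 88.7 at P0 and 446, 183, 471 and 449.9 at P16. This is a miRNA of cartilage. All cochlear P16 libraries lay above all cochlear P0 libraries, with P16 replicate 2 far below the other 3, and the SOC ages overlapped. The log2 change of miR-140-5p was -0.67 (SE 0.46) in the SOC and 2.23 (SE 0.45) in the cochlea, which gave a difference of -2.90 (SE 0.65, FDR 0.0185), or -3.21 relative to the median of all differences. Adding the set covariate gave -2.57 (FDR 0.00192). The other arm, miR-140-3p, changed by 0.45 in the SOC and 1.31 in the cochlea, a difference of -0.85 (FDR 0.519). With the set covariate, the difference of miR-140-3p was -1.89 and was called (FDR 0.0142). The 4 cartilage miRNAs (both arms of miR-140 and miR-455), all tested, summed in the cochlea to 9116, 9657, 7268 and 8444 normalized CPM at P0 and 13910.3, 21190.2, 11343 and 15372 at P16, with miR-455-3p the most abundant and 1 member at 0 in P0 replicate 3. In the SOC they summed to 349.7, 323, 253 and 593 at P0 and 212, 428 and 555 at P16. The share of cartilage in the cochlear samples was not tested.

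miR-1a-3p measured 43.4, 15.1, 18.6 and 5.18 normalized CPM in the SOC at P0 and 36.1, 15.4 and 21.7 at P16. Its cochlear values were 130.1, 116, 67.2 and 71.9 at P0 and 1988, 472, 1874 and 1071 at P16. This miRNA marks striated muscle. Every cochlear P16 library exceeded every cochlear P0 library, and P16 replicate 2 was again the lowest of its group, while in the SOC the ages overlapped. miR-1a-3p changed by 0.24 (log2, SE 0.62) in the SOC and by 3.81 (SE 0.65) in the cochlea, a difference of -3.57 (SE 0.89, FDR 0.0282) and of -3.88 relative to the median. With the set covariate it was -3.04 (FDR 0.00598). Of 14 muscle miRNAs listed, 2 were tested, the other being miR-206-3p, and their sum in the cochlea went from 154, 228, 95.3 and 141 normalized CPM at P0 to 2000.1, 486, 1919 and 1097 at P16, nearly all miR-1a-3p at P16. In the SOC the sum was 51.3, 21.9, 28 and 23.4 at P0 and 49.7, 28.1 and 30.7 at P16. miR-206-3p changed by -1.27 in the cochlea (FDR 0.181), and its difference of 1.43 (FDR 0.321) was not called. Whether muscle was dissected along with the cochlea at P16 was not tested.

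For miR-148a-3p, the SOC libraries held 95.8, 44.2, 43.8 and 24.5 normalized CPM at P0 and 35.4, 14.4 and 15.9 at P16, and the cochlear libraries 16.6, 9.30, 14.0 and 12 at P0 and 80.6, 24.1, 59.3 and 44.6 at P16. All cochlear P16 libraries lay above all P0 libraries, on 7, 4, 5 and 5 counts at P0 and 32, 7, 20 and 12 at P16, and the SOC ages overlapped. On the log2 scale miR-148a-3p changed by -1.25 (SE 0.58) in the SOC and by 2.02 (SE 0.60) in the cochlea, a difference of -3.26 (SE 0.84, FDR 0.0298), or -3.58 relative to the median of all differences. It was -3.07 (FDR 0.00269) with the set covariate. Its seed is shared by miR-148b-3p, which differs in 2 bases, so reads may have been counted for either of them. The difference of miR-148b-3p was -2.53 (SE 0.79, FDR 0.0652). The hairpin of miR-148a lies on chromosome 6 at chr6:51269812-51269910 in no annotated gene.

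miR-376c-3p belongs to the imprinted Dlk1-Dio3 region of chromosome 12, which encodes a large cluster of miRNAs expressed from the maternal allele. In the SOC, miR-376c-3p stood at 129.6, 70.6, 62.5 and 19.6 normalized CPM at P0 and at 10.2, 2.68 and 4.35 at P16. The cochlea gave 16.6, 6.98, 5.60 and 21.6 at P0 and 57.9, 24.1, 38.6 and 7.44 at P16. In the SOC the ages did not overlap. In the cochlea they did, and the counts behind the values were 7, 3, 2 and 9 at P0 and 23, 7, 13 and 2 at P16. miR-376c-3p changed by -3.59 (log2, SE 0.80) in the SOC and by 1.35 (SE 0.74) in the cochlea, a difference of -4.94 (SE 1.06, FDR 0.0185) and of -5.25 relative to the median. Adding the set covariate gave -4.42 (FDR 0.000844). The neighbouring miR-381-3p, at chr12:109726822-109726896, measured 21181, 11223, 9055 and 2413 normalized CPM in the SOC at P0 and 3277, 768 and 688 at P16. Its SOC ages overlapped only through P0 replicate 4 of set C, and the SOC change was -2.80 (SE 0.74, FDR 0.0167). With at most 2 counts in any cochlear library, no difference between the organs can be given for it.

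The hairpin of miR-877 is a mirtron, released by splicing from an intron of Abcf1 (chr17:35960730-35960814, minus strand, chromosome 17), and both its arms were called. For miR-877-5p, the SOC libraries held 12.5, 12.9, 14.9 and 40.9 normalized CPM at P0 and 58.2, 121 and 89.5 at P16, and the cochlear libraries 97.0, 121, 207 and 163 at P0 and 25.2, 86.2, 53.4 and 74.4 at P16. The ages did not overlap in either organ: all SOC libraries were higher at P16 and all cochlear libraries lower. The cochlear change was not called (FDR 0.113). SOC P0 replicate 4 lay far above the other P0 libraries and below all of P16. This gave a log2 change of 2.15 (SE 0.55) in the SOC, -1.31 (SE 0.53) in the cochlea, and a difference of 3.45 (SE 0.77, FDR 0.0185), or 3.14 relative to the median of all differences. In the SOC, miR-877-3p stood at 7.28, 4.52, 3.32 and 20.2 normalized CPM at P0 and at 44.8, 138 and 96.8 at P16. The cochlea gave 239, 335, 359 and 381 at P0 and 237, 555, 379.6 and 439 at P16. Here the SOC ages were again fully apart, with the set C libraries the highest at each age, and the cochlear ages overlapped. miR-877-3p changed by 3.41 (log2, SE 0.61) in the SOC and by 0.29 (SE 0.54) in the cochlea, a difference of 3.12 (SE 0.80, FDR 0.0293) and of 2.81 relative to the median. With the set covariate the differences were 3.04 (FDR 0.00151) for the 5p arm and 2.28 (FDR 0.00438) for the 3p arm.

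miR-3102-3p.2-3p measured 7.08, 1.56, 6.21 and 6 normalized CPM in the SOC at P0 and 36.5, 65.6 and 39.4 at P16. Its cochlear values were 397, 539, 597 and 561 at P0 and 297, 855, 430.0 and 692 at P16. The SOC ages did not overlap, and the cochlear ages did. The log2 change of miR-3102-3p.2-3p was 3.16 (SE 0.54) in the SOC and 0.12 (SE 0.48) in the cochlea, which gave a difference of 3.04 (SE 0.72, FDR 0.0203), or 2.73 relative to the median of all differences. For miR-935, the SOC libraries held 28.9, 31.3, 33.1 and 34.6 normalized CPM at P0 and 68.2, 61.6 and 56.5 at P16, and the cochlear libraries 121, 216, 235 and 211 at P0 and 40.3, 72.4, 32.6 and 78.1 at P16. Its hairpin lies in an exon of Cacng8 on chromosome 7 (chr7:3415066-3415156). Like miR-877-5p, it was higher in every SOC library of P16 than in any of P0, and lower in every cochlear one, and within the SOC each group was tight. miR-935 changed by 0.96 (log2, SE 0.44) in the SOC and by -1.82 (SE 0.44) in the cochlea, a difference of 2.77 (SE 0.62, FDR 0.0185) and of 2.46 relative to the median. Under the set covariate they came to 2.64 (FDR 0.00661) for miR-3102-3p.2-3p and 2.80 (FDR 0.00151) for miR-935. With SOC counts thinned, the difference of miR-935 was 1.29 and was not called. In the SOC alone, its rise was not called (FDR 0.133).

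Another 6 miRNAs fell in the cochlea, with no called change in the SOC. In the SOC, miR-3099-3p stood at 657, 935, 971 and 725 normalized CPM at P0 and at 363.4, 725 and 519.8 at P16. The cochlea gave 161, 198, 266 and 230.0 at P0 and 10.1, 20.7, 8.90 and 22.3 at P16. All cochlear P16 libraries lay far below all P0 libraries, at 4, 6, 3 and 6 counts, and the SOC ages overlapped. On the log2 scale miR-3099-3p changed by -0.62 (SE 0.45) in the SOC and by -3.81 (SE 0.50) in the cochlea, a difference of 3.19 (SE 0.65, FDR 0.0185), or 2.88 relative to the median of all differences. For miR-383-5p, the SOC libraries held 591, 248, 261 and 1012 normalized CPM at P0 and 665, 972 and 909.7 at P16, and the cochlear libraries 147, 205, 171 and 127 at P0 and 12.6, 55.2, 26.7 and 18.6 at P16. Again the cochlear ages were fully apart and the SOC ages overlapped, with the set A libraries the lowest of SOC P0. miR-383-5p changed by 0.69 (log2, SE 0.54) in the SOC and by -2.53 (SE 0.57) in the cochlea, a difference of 3.22 (SE 0.78, FDR 0.0258) and of 2.91 relative to the median. The hairpin of miR-3099 lies in an intron of Usp29 at chr7:6803587-6803670 on chromosome 7. The set covariate gave 3.33 (FDR 0.000639) for miR-3099-3p and 2.56 (FDR 0.00408) for miR-383-5p.

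miR-181b-5p measured 6081, 6149, 6242 and 5980.2 normalized CPM in the SOC at P0 and 8054, 6686 and 7664 at P16. Its cochlear values were 73.3, 116, 89.7 and 59.9 at P0 and 12.6, 10.3, 26.7 and 3.72 at P16. miR-181 miRNAs are abundant in the brain. In the SOC every P16 library lay slightly above every P0 library in normalized CPM, but as shares of the library totals the ages overlap. In the cochlea every P16 library lay below every P0 library, although on only 5, 3, 9 and 1 counts at P16. This gave a log2 change of 0.29 (SE 0.45) in the SOC, -2.64 (SE 0.50) in the cochlea, and a difference of 2.93 (SE 0.66, FDR 0.0185), or 2.61 relative to the median of all differences. With the set covariate it was 2.94 (FDR 0.00149). It differs from miR-181d-5p in 2 bases, so reads of the pair may be shared. Of the 6 tested arms of the miR-181 family, 5 had a difference above 0, as had 260 of all 483 miRNAs. For the seed mates it was 1.36 (FDR 0.271) for miR-181a-5p and 0.69 (FDR 0.467) for miR-181c-5p, neither of them called, and the family was not tested as a whole.

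The next pair of miRNAs comes from the imprinted region that also holds miR-376c-3p, with the hairpins of miR-323 at chr12:109712508-109712593 and of miR-409 at chr12:109743158-109743236, the latter in an intron of the long RNA Mirg. In the SOC, miR-323-3p stood at 2263, 1890.5, 2316 and 3150.4 normalized CPM at P0 and at 1534, 4369 and 4158 at P16. The cochlea gave 513, 642, 611 and 1023 at P0 and 113, 207, 128 and 93.0 at P16. In the SOC, P16 replicate 1 of set B was the lowest library and P16 replicates 2 and 3 of set C the highest, so the ages overlapped. In the cochlea every P16 library was below every P0 library. miR-323-3p changed by 0.48 (log2, SE 0.47) in the SOC and by -2.37 (SE 0.46) in the cochlea, a difference of 2.85 (SE 0.65, FDR 0.0185) and of 2.53 relative to the median. For miR-409-3p, the SOC libraries held 6124, 5602, 6059 and 4319.8 normalized CPM at P0 and 5563, 6239 and 5339 at P16, and the cochlear libraries 414, 579, 728 and 702 at P0 and 98.2, 162, 130.5 and 96.7 at P16. SOC levels lay close together in all 7 libraries, set C P0 replicate 4 the lowest, and the cochlear ages did not overlap. The log2 change of miR-409-3p was 0.05 (SE 0.40) in the SOC and -2.31 (SE 0.39) in the cochlea, which gave a difference of 2.36 (SE 0.55, FDR 0.0203), or 2.05 relative to the median of all differences. Under the set covariate the difference was 2.37 (FDR 0.00408) for miR-323-3p and 2.49 (FDR 0.0013) for miR-409-3p. The other arm of miR-323 had a difference of 2.45 (FDR 0.102), and of 2.00 with the set covariate, where it was called (FDR 0.0477). That of miR-409 had -3.70 (FDR 0.0947), opposite in sign to the 3p arm, and -0.06 with the set covariate.

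miR-99b-3p measured 72.9, 79.5, 102 and 139 normalized CPM in the SOC at P0 and 87.6, 145 and 172 at P16. Its cochlear values were 175, 223, 174 and 165 at P0 and 42.8, 27.6, 56.3 and 59.5 at P16. The cochlear ages did not overlap, and the SOC ages did. miR-99b-3p changed by 0.46 (log2, SE 0.44) in the SOC and by -1.99 (SE 0.44) in the cochlea, a difference of 2.44 (SE 0.62, FDR 0.0293) and of 2.13 relative to the median. It was 2.21 (FDR 0.00442) with the set covariate. Its partner arm miR-99b-5p, the miRNA that sets the set A libraries apart, had a difference of -1.43 (FDR 0.305), and of 0.29 with the set covariate.

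miR-338, from an intron of Aatk on chromosome 11 (chr11:120014765-120014862), promotes the maturation of oligodendrocytes. In the SOC, miR-338-5p stood at 92, 46.3, 103 and 111 normalized CPM at P0 and at 2817, 3241 and 6673 at P16. The cochlea gave 42.6, 27.9, 36.4 and 31.2 at P0 and 345, 186, 377 and 319.8 at P16. In both organs every P16 library exceeded every P0 library. On the log2 scale miR-338-5p changed by 5.59 (SE 0.53) in the SOC and by 3.15 (SE 0.48) in the cochlea, a difference of 2.44 (SE 0.65, FDR 0.0337), or 2.13 relative to the median of all differences. It was the only called miRNA that had risen in both organs, and its call was among those that ended with TMM factors within each organ, where the difference was 2.05 (FDR 0.0525). Adding the set covariate gave 2.09 (FDR 0.0149). For miR-338-3p, the SOC libraries held 482, 304, 233 and 119.9 normalized CPM at P0 and 4025, 1273 and 1810.1 at P16, and the cochlear libraries 11.8, 16.3, 2.80 and 28.8 at P0 and 242, 131, 216 and 216 at P16. This arm, too, was higher in all P16 libraries of both organs, by 3.06 (SE 0.60) in the SOC and by 3.74 (SE 0.64) in the cochlea, on 5, 7, 1 and 12 cochlear counts at P0. Its difference of -0.68 (SE 0.84, FDR 0.616) was not called, and the arms were not tested against each other. Of the 8 oligodendrocyte miRNAs listed (miR-338 and miR-219), 3 were tested, and they summed to 606, 386, 371 and 278 normalized CPM in the SOC at P0 and 6850.0, 4524 and 8496 at P16. The cochlear sums were 63.9, 55.8, 42.0 and 71.9 and 595, 317, 593 and 535. These sums are mostly miR-338. The other member, miR-219a-1-3p, was lower in every SOC library of P16 than in any of P0, a change of -1.82 that was not called (FDR 0.0629), and was at 0 in cochlea P16 replicates 2, 3 and 4. The part of oligodendrocytes in these changes was not tested.

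**Figure D4:**
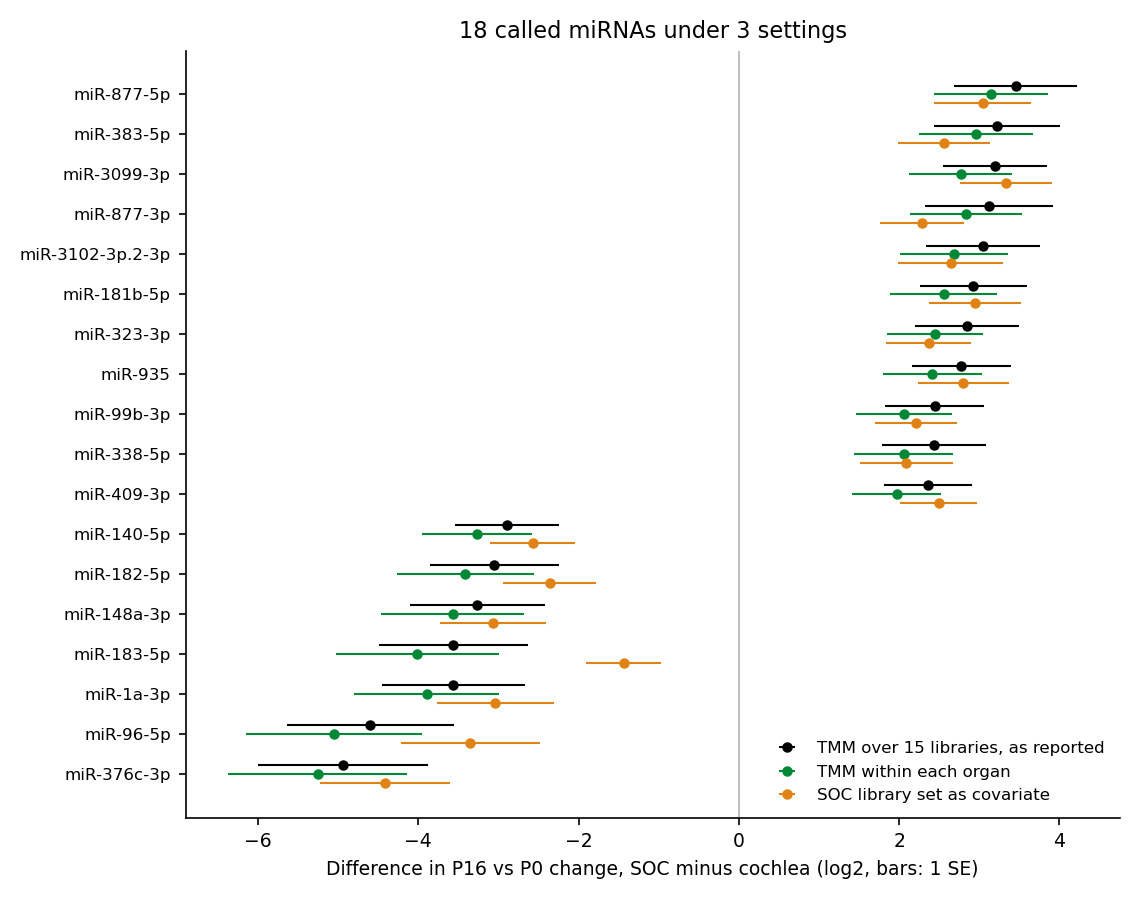
Difference between the organs in the P16 vs P0 change (log2, SOC minus cochlea, bars of 1 SE) of the 18 called miRNAs with no group at the floor, with TMM factors over 15 libraries, with TMM factors within each organ and with the SOC library set as a covariate. All 18 keep their side of 0, and miR-183-5p moves most, from -3.56 to -1.44 with the set covariate.

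Another 5 called miRNAs had a group at the floor, so their fitted differences depend on the fit and are not printed. For miR-212-3p, induced by neuronal activity together with miR-132, the SOC counts were 622, 221, 338 and 323 at P0 and 1562, 1053 and 1016 at P16, and the cochlear counts 4, 9, 0 and 2 at P0 and 0, 1, 2 and 0 at P16. Every SOC P16 library lay above every P0 library in normalized CPM, a change of 2.40 (log2, SE 0.64, FDR 0.0167), and the cochlear ages overlapped (interaction FDR 0.0342, 0.0105 with the set covariate). The counts of miR-375-3p, a miRNA of endocrine and neuroendocrine cells, were 4183, 2666, 4222 and 2086 in the SOC at P0 and 3137, 11918 and 43019 at P16, against 1, 5, 2 and 7 and 1, 3, 2 and 0 in the cochlea. In the SOC, P16 replicate 1 lay within the range of P0 in normalized CPM (606, 3989 and 12463 at P16 against 429, 464, 609.8 and 569 at P0), so its rise came from replicates 2 and 3 of set C, and its call (FDR 0.0396) ended with the set covariate (FDR 0.0546). Without SOC P16 replicate 3 no miRNA was called at all.

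For miR-1927 the SOC counts were 83, 28, 29 and 14 at P0 and 66, 40 and 39 at P16, and the cochlear counts 4, 3, 0 and 2 at P0 and 0, 0, 0 and 0 at P16 (interaction FDR 0.0412, 0.0239 with the set covariate). In normalized CPM every SOC P16 library lay above P0 (12.8, 13.4 and 11.3 against 8.52, 4.87, 4.19 and 3.82), a change that was not called (FDR 0.197), and the cochlear counts allow no bound on the fall. As shares of the library totals, the SOC ages of miR-1927 overlap. miR-135b-3p had 146, 56, 30 and 12 counts in the SOC at P0 and 2, 1 and 2 at P16, at least 9.88-fold lower against 3 counts per library, and 0, 2, 0 and 0 and 0, 0, 2 and 4 in the cochlea (interaction FDR 0.0437, 0.0178 with the set covariate). For miR-99a-5p the SOC counts fell from 101, 69, 110 and 19 to 2, 6 and 4 (log2 -3.21, SE 0.77, FDR 0.00896), and both cochlear groups were at the floor with 1, 0, 1 and 0 and 2, 3, 1 and 1 counts (interaction FDR 0.0262, 0.0163 with the set covariate). No fold is given for a change between groups that are both at the floor. miR-99a-5p differs from miR-100-5p in 1 base.

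Of the miRNAs with at least 100 normalized CPM in each organ, 5 rose in both and 0 fell in both with no called difference. The 3 whose difference was known most narrowly are described here. In the SOC, let-7b-3p stood at 283, 235, 218 and 198 normalized CPM at P0 and at 603, 656 and 598 at P16. The cochlea gave 483, 699.9, 972 and 824 at P0 and 2700.4, 3154, 1373 and 1301 at P16. This gave a log2 change of 1.41 (SE 0.44) in the SOC, 1.52 (SE 0.42) in the cochlea, and a difference of -0.11 (SE 0.60, FDR 0.926). Every P16 library exceeded every P0 library in both organs, and the 95% interval of the difference ran from -1.38 to 1.15. For miR-150-5p, the SOC libraries held 298, 365, 271 and 517 normalized CPM at P0 and 1641, 2058 and 2093 at P16, and the cochlear libraries 828, 1163, 1269 and 1188 at P0 and 8313, 12741, 2971 and 2938 at P16. This miRNA of mature lymphocytes also rose without overlap in both organs, by 2.41 (SE 0.52) and 2.60 (SE 0.50), and cochlea P16 replicates 1 and 2 were the highest. Its difference of -0.19 had a 95% interval from -1.64 to 1.26 (FDR 0.871). miR-34a-5p measured 224, 470.4, 536 and 140.4 normalized CPM in the SOC at P0 and 3256, 2278 and 2650.0 at P16. Its cochlear values were 54.4, 62.8, 30.8 and 28.8 at P0 and 335, 327, 599 and 424 at P16. miR-34a-5p, which p53 induces, also stood higher in all P16 libraries, by 2.99 (SE 0.52) in the SOC and 3.25 (SE 0.52) in the cochlea. The interval of its difference of -0.26 was -1.71 to 1.2 (FDR 0.837). Such intervals leave room for differences of over 1 log2 unit in either direction. Relative to the median of all differences, 0.31, each of these 3 differences lies further on the negative side.

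For the miRNAs that the study's text names, some of them without an arm or letter, 10 mature miRNAs were chosen here. Of these, 7 were tested, and miR-20b-5p, miR-29a-3p and miR-29c-3p did not pass the filter. The members of the sensory cluster and miR-381-3p are given above. let-7b-5p, of the family that promotes differentiation, had 9.64, 6.26, 5.78 and 97.6 normalized CPM in the SOC at P0 and 35.8, 168 and 210.0 at P16, and 1247, 1858, 2101 and 1972 and 4179, 4106, 5566 and 8556 in the cochlea. P0 replicate 4 of the SOC stood far above the other P0 libraries, so the SOC ages overlapped, while the cochlear ages did not. Its difference was 0.58 (SE 1.10, FDR 0.755), and -0.31 with the set covariate. Over 44 alternatives it ran from -0.44 to 3.02 and was called higher in the SOC in 3. For miR-20a-5p, the SOC libraries held 962, 926, 679 and 667 normalized CPM at P0 and 284, 396 and 451 at P16, and the cochlear libraries 142, 79.1, 64.4 and 62.3 at P0 and 45.3, 3.45, 20.8 and 33.5 at P16. This member of the miR-17 cluster, tied to proliferation, was lower in all P16 libraries of both organs, with changes of -1.10 (SE 0.55) and -1.74 (SE 0.55), the SOC change not called (FDR 0.167), and the difference of 0.64 (SE 0.76) was not called (FDR 0.611). The counts of miR-29b-3p were 170, 32, 48 and 21 in the SOC at P0 and 370, 155 and 188 at P16, and 0, 0, 0 and 0 and 11, 4, 5 and 2 in the cochlea. It rose in the SOC by 2.72 (SE 0.61, FDR 0.00781) and was at least 2.15-fold higher in the cochlea at P16, against 3 counts per library at P0.

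Hairpin arms and seeds are what called miRNAs share with others beyond the test. The other arm was tested for 10 of the 23 called miRNAs. In 5 of these it had a difference of the same sign, and in 2 it was called too. Those 2 are the arms of miR-877, each the partner of the other, so a single hairpin was counted from both sides. Over all 483 miRNAs the share called was 4.76%. With the set covariate, 4 of the 10 other arms were called, both arms of miR-877 again among them, and the share over all 483 was 18.4%. Of the seed mates tested, miR-132-3p, which shares its seed with miR-212-3p, measured 807, 646, 778 and 2051 normalized CPM in the SOC at P0 and 3768, 5371 and 5175 at P16. All SOC P16 libraries lay above P0, and the cochlear ages, 33.1, 46.5, 25.2 and 57.5 and 103, 65.5, 56.3 and 70.7, overlapped. Its SOC change was 2.16 (SE 0.48, FDR 0.00606) and its difference 1.29 (SE 0.67, FDR 0.238).

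Families, clusters and cell type lists are described by counts and by the median difference of their members with no group at the floor, followed in brackets by the lowest and the highest median over 7 settings (TMM, RLE, totals, TMM within each organ, DESeq2, limma-voom and the set covariate). Where members at the floor were tested too, the median over all tested members follows. Over all 332 such miRNAs the median was 0.36 (-0.01 to 0.79), so it changed sign between settings, and a list is read against it. Relative to all miRNAs, the medians of 7 lists (let-7, oligodendrocyte, miR-15 and miR-16, endothelium, ciliated cells, miR-221 and miR-222, and miR-23/27/24) changed side in 1 setting. A setting said to be the only one with a sign is the only one of these 7. Beside the counts of called members, the shares over all 483 miRNAs were 4.76% for the difference, 18.4% with the set covariate, 5.8% for a rise and 6.42% for a fall in the cochlea. The sensory cluster had a median of -3.31 over 4 (-4.52 to -1.90). Among proliferation-linked clusters, the miR-17 clusters had 15 of 27 miRNAs tested, 0 called and a median of 1.44 over 11 (1.01 to 1.52, 1.44 over all 15). In the cochlea 4 of them fell, and with the set covariate 3 had a higher change in the SOC. The X-linked miR-322 to miR-450 cluster, also growth-linked, had 9 of 13 tested, 0 called (3 higher with the set covariate), 2 falls in the cochlea and a median of 1.8 over 5 (1.35 to 1.8, 1.42 over all 9). Its miR-351-5p went from 2507, 2428, 2396 and 1953 to 309.8, 748, 353 and 439 normalized CPM in the cochlea and from 7766, 3929, 3796 and 1962 to 6009, 1540.1 and 1496 in the SOC. The cochlear ages were apart and the SOC ages overlapped, with a difference of 1.8 (SE 0.76, FDR 0.154).

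The miR-15 and miR-16 family, cell-cycle inhibitors, had 7 of 13 tested, 0 called and a median of 0.66 over 6 (0.02 to 1.58, 0.94 over all 7). For the miR-130 and miR-301 family these were 6 of 8 tested, 0 called (1 higher with the set covariate) and 1.66 over 3 (0.46 to 3.02, -0.55 over all 6). The median over all 6 has the other sign. In it miR-130b-5p had lower levels at P16 without overlap in both organs, going from 242, 191, 163 and 277 to 48.9, 94.7 and 99.7 normalized CPM in the SOC and from 1216, 1704, 3824 and 2130.2 to 277, 159, 113 and 74.4 in the cochlea. The cochlear fall was called, the SOC change was not (FDR 0.07), and the difference was 2.40 (SE 0.71, FDR 0.0554). The let-7 family had all 9 listed 5p arms tested, 0 called and a median of 0.58 over 9 (-0.24 to 1.42), which fell below 0 with the set covariate only. Of the miR-29 family 3 of 7 were tested and 0 called, with a median of -1.32 over 2 (-2.18 to -0.76, -1.83 over all 3). The miR-181 family had 6 of 10 tested, 1 called higher (miR-181b-5p) and a median of 1.36 over 4 (0.53 to 2.77, 1.36 over all 6). The miR-99/100 and miR-125 families had 10 of 11 tested, 1 higher (miR-99b-3p), 1 lower (miR-99a-5p) and a median of -0.19 over 7 (-0.57 to 0.40, -0.39 over all 10), above 0 with limma-voom and with the set covariate.

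The miR-30 family had 9 of 11 tested and 0 called (1 lower with the set covariate), and each of the 9 had a difference below 0, where 260 of all 483 lay above 0. The median was -1.28 over 7 (-1.71 to -1.26, -1.50 over all 9). In it miR-30b-5p measured 3696, 1799, 1529 and 3030.4 normalized CPM in the SOC at P0 and 2038, 2103 and 2339 at P16, and 156, 79.1, 199 and 139 and 1516, 434, 332 and 271 in the cochlea. The cochlear ages did not overlap, with P16 replicate 1 the highest, and the SOC ages did. Its difference was -2.38 (SE 0.80, FDR 0.0837). The miR-26 family had 5 of 5 tested, 0 called and a median of -1.09 over 4 (-1.49 to -0.31, -1.10 over all 5). For the miR-23/27/24 clusters these were 6 of 11, 0 (2 lower with the set covariate) and 0.07 over 3 (-0.58 to 0.89, -1.56 over all 6), so the sign depended on the setting. The miR-193 and miR-365 clusters gave 4 of 7, 0 (1 lower with the set covariate) and -2.32 over 4 (-4.87 to -1.11). With miR-221 and miR-222 it was 3 of 4, 0 and 0.08 over 2 (-0.32 to 0.74, 0.10 over all 3), again of either sign. With miR-204 and miR-211 it was 2 of 4, 0 (1 higher with the set covariate) and 1.43 over 2 (0.83 to 2.85).

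**Figure D5:**
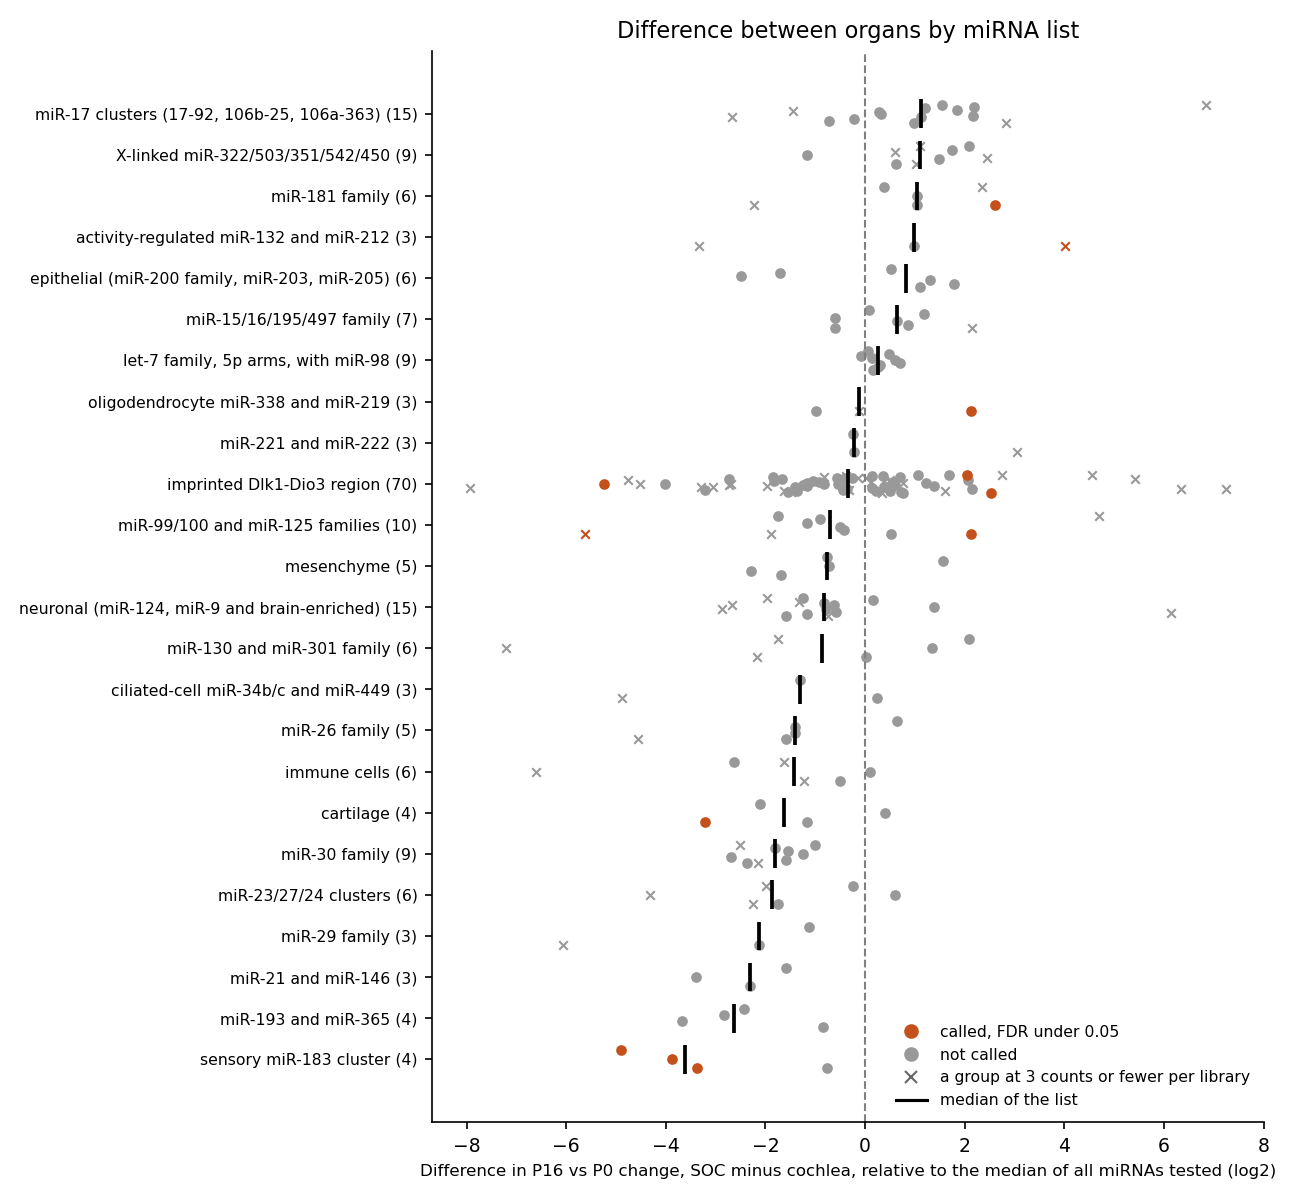
Difference between the organs in the P16 vs P0 change (log2, SOC minus cochlea) of each tested member of the lists with at least 3 such members, relative to the median of all 483 differences, with the number tested in brackets and the median of each list as a bar. Crosses mark members with a group at the floor, and called members are coloured, 3 of them in the sensory cluster at the bottom.

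Among lists tied to neurons and glia, the neuronal list had 15 of 20 tested, 0 called (2 lower with the set covariate) and a median of -0.48 over 9 (-0.87 to 0.10, -0.52 over all 15), above 0 with limma-voom only. The activity-regulated pair miR-132 and miR-212 had 3 of 4 tested, 1 called higher (miR-212-3p) and a single member with no group at the floor, miR-132-3p. The oligodendrocyte list had 1 called higher (miR-338-5p) and a median of 0.88 over 2 (0.46 to 0.89, 0.19 over all 3), from members of opposite sign, 2.44 for miR-338-5p and -0.68 for miR-338-3p. Relative to all miRNAs its median was 0.52 (-0.13 to 0.73). Of the imprinted Dlk1-Dio3 region 70 of 100 were tested, with 2 called higher, 1 lower and a median of -0.09 over 43 (-0.45 to 0.36, -0.03 over all 70), above 0 with limma-voom only. With the set covariate 6 of the 70 were higher and 4 lower. Its summed level in the SOC was 542718, 601088, 713456 and 564739.6 normalized CPM at P0 and 1005765, 1153916 and 975103 at P16, and in the cochlea 5793, 6269, 5811 and 7011 and 5436, 6567, 9006 and 8486. The most abundant member was miR-127-3p in the SOC and mostly miR-382-5p in the cochlea, where 10 to 19 members had 0 counts. The SOC sums were higher at P16 in normalized CPM, but as shares of the library totals the ages overlap, and the median member above the floor changed by 0.04 in the SOC. The cochlear sums overlapped. The Hox-cluster miRNA tested, miR-615-3p, was not called (FDR 0.165), and both its cochlear groups were at the floor.

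Among lists tied to other tissues, the epithelial list had 6 of 13 tested, 0 called (1 higher with the set covariate) and a median of 1.13 over 6 (0.26 to 1.30). Its sums in the SOC were 252, 377, 198 and 156 normalized CPM at P0 and 114, 169 and 502.9 at P16. The cartilage list had 1 of 4 called lower (3 with the set covariate) and a median of -1.32 over 4 (-2.23 to 0.11), above 0 with limma-voom only. The muscle list had 1 of 2 called lower and a median of -1.07 over 2 (-1.49 to -0.93). The mesenchymal list (miR-199, miR-214, miR-143 and miR-145) had 5 of 8 tested, 0 called (1 lower with the set covariate) and a median of -0.46 over 5 (-1.23 to -0.46). In the cochlea its sum fell without overlap from 28519, 37105, 23028 and 31435 to 10673, 12155, 7701 and 7348, led by miR-214-3p, which was called lower. The median member rose by 0.56, and miR-143-3p was called higher, going from 572, 277, 154 and 220.4 to 2083, 531, 1578 and 1223, where only P16 replicate 2 lay below a P0 library. In the SOC the sum was 43697, 25913, 29005 and 41762 and 43409, 58972 and 76872, led by miR-143-3p. The ciliated-cell miRNAs miR-34b, miR-34c and miR-449 had 3 of 8 tested, 0 called (1 lower with the set covariate) and a median of -0.22 over 2 (-0.83 to 1.35, -0.99 over all 3), above 0 with limma-voom only.

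The immune list had 6 of 8 tested, 0 called (1 lower with the set covariate) and a median of -0.19 over 3 (-0.56 to 0.73, -1.11 over all 6), above 0 with limma-voom only. Its sum, mostly miR-150-5p, rose without overlap in both organs, in the SOC from 486, 425, 322 and 620.2 to 1770.2, 2164 and 2215 normalized CPM and in the cochlea from 937, 1299.9, 1381 and 1308 to 8761, 13079, 3212 and 3202, where 1 to 3 members were at 0 in all libraries but P16 replicate 1. The blood list had 2 of 4 tested (miR-144-5p and miR-486a-3p), 0 called and cochlear sums of 2.37, 16.3, 8.41 and 2.40 at P0 and 17.6, 3.45, 8.90 and 3.72 at P16, with a member at 0 in 5 of 8 libraries. In the SOC its sums were 54.6, 22.1, 20.9 and 35.7 at P0 and 47.0, 63.9 and 52.1 at P16, and the difference of miR-144-5p, the member above the floor, was -0.34 (FDR 0.891), and above 0 in some alternatives, limma-voom among them. Over both members the median was 0.48. The endothelial list had 1 of 3 tested, miR-126a-3p, at 3088, 1542, 1561 and 17536 in the SOC at P0, 2113, 11792 and 18630.2 at P16, and 632, 393, 322 and 460.1 and 3441, 907, 1581 and 1372 in the cochlea. SOC P0 replicate 4 and P16 replicates 2 and 3, set C, lay above the other SOC libraries, and the difference went from -1.14 (FDR 0.519) to -2.37 (FDR 0.00464) with the set covariate, and was above 0 in some alternatives, limma-voom among them. Of the inflammation-linked miR-21 and miR-146, 3 of 7 were tested and 0 called (1 lower with the set covariate), with a median of -2 over 3 (-3.09 to -2). In this list miR-146b-5p went from 19.6, 20.5, 22.1 and 3.27 to 15.3, 12 and 12.5 normalized CPM in the SOC, with overlap, and rose in the cochlea without overlap, from 37.8, 9.30, 11.2 and 9.58 to 123, 41.4, 196 and 104, and its difference was -3.08 (SE 0.96, FDR 0.0652). The part of any of these cell types in the differences was not tested.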

How the data were processed

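The authors deposited read counts per mature miRNA and library, without normalization, under miRBase names. The submitters' processing notes name Bowtie2 2.2.5 and mm10, while the paper's methods describe Bowtie alignment to a MirGeneDB reference. Each count column was paired with its label by organ, age and replicate, and 0 columns were left without a sample. Library totals and CPM were computed over all listed miRNAs. Changes and their difference were tested with edgeR 4.0.16 in R 4.3.3 (TMM, quasi-likelihood F test, 1 mean per group), with Benjamini-Hochberg adjustment over the 483 miRNAs. A standard error is the log2 value divided by the root of F. Members and lists were chosen with earlier results of these data known.

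Named miRNAs were the called ones with at least 100 normalized CPM in each organ (9), called opposite changes (0), up to 3 shared rises and 3 shared falls with the narrowest interval (3 and 0), those chosen here for the names in the study's text, some of which lack an arm or letter (7 of 10 tested) and the 2 most abundant of each list (56). A further 11 called miRNAs, and the other arms and seed mates of called miRNAs, were chosen after their values were seen. An SOC library was put in set A if miR-99b-5p took over 10% of its counts, in set C if miR-191-5p took under 1%, and otherwise in set B. These sets thus come from the same counts that were tested. Alternatives used DESeq2 1.42.0 and limma 3.58.1, the latter as limma-voom with sample quality weights. TMM within each organ combined with the set covariate, or with libraries left out, was chosen after seeing the data. Tables and figures used Python 3.11.15, pandas 2.3.3 and matplotlib 3.10.9. Scripts were tested on simulated data.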

Additional observations from a re-analysis of the deposited data

Results flagged for a closer look

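In 18 miRNAs with no group at the floor, the P16 vs P0 change differed between the organs by the test of the difference itself (edgeR interaction, FDR under 0.05). The change was lower in the SOC (log2 difference) for miR-376c-3p (-4.94), miR-96-5p (-4.60), miR-1a-3p (-3.57), miR-183-5p (-3.56), miR-148a-3p (-3.26), miR-182-5p (-3.05) and miR-140-5p (-2.90). It was higher in the SOC for miR-877-5p (3.45), miR-383-5p (3.22), miR-3099-3p (3.19), miR-877-3p (3.12), miR-3102-3p.2-3p (3.04), miR-181b-5p (2.93), miR-323-3p (2.85), miR-935 (2.77), miR-338-5p (2.44), miR-99b-3p (2.44) and miR-409-3p (2.36). These are the miRNAs described in the report, all 18 keep their sign in every setting in which they were tested, and no explanation was tested.

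Among the 30 miRNAs looked at in this way (81 groups of 4 libraries), 6 values lay far from the other 3 of their group by Dixon's test at the 5% level, and chance alone gives about 1 in 20 groups. In SOC P0 replicate 4, let-7b-5p was at 97.6 normalized CPM against 5.78 to 9.64 in the others, and miR-877-5p at 40.9 against 12.5 to 14.9. In SOC P0 replicate 1, miR-29b-3p was at 17.4 against 5.56 to 6.93. In cochlea P16 replicate 2, miR-140-5p was at 183 against 446 to 471, and miR-183-5p at 7067 against 14631 to 15909. In cochlea P0 replicate 2, miR-99b-3p was at 223 against 165 to 175. The cause was not tested.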

How the results depend on the processing

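Each of the 23 called differences kept its direction in every alternative in which it was tested. Of the named differences that were not called, 2 were called in the opposite direction by limma-voom: miR-125b-5p at 1.21 and miR-16-5p at 1.45. Others changed sign with no call in the opposite direction, such as let-7b-5p (-0.44 to 3.02) and miR-126a-3p (-2.49 to 1.04). In their reported direction, let-7b-5p and miR-126a-3p were each called in 3 of 44 alternatives.

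The count of 23 differences came to 20 with RLE factors, 20 with library totals, 31 with TMM within each organ, 22 with SOC counts thinned and 23 with over 1.5-fold required. It moved by more than 1.5 times with DESeq2 (61), limma-voom (277), a separate fit of each organ (36), no filter (12 of 1581), at least 10 counts in every library (13 of 145), all 21 libraries (35 of 545), the set covariate (89), the set covariate without set A (78) and, chosen after seeing the data, TMM within each organ with the set covariate (89). The filters changed how many miRNAs were tested, and otherwise the cause was not tested. With 1 library left out it ranged from 0 to 108, and with TMM within each organ from 0 (without cochlea P0 replicate 4 among others) through 7 (without cochlea P0 replicate 2) and 14 (without cochlea P0 replicate 3) to 92. Beside the 0 calls, edgeR gave 91 to 102 at an unadjusted p under 0.05.

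The 74 changes called in the SOC became 137 with DESeq2, 362 with limma-voom, 47 in a fit of its own, 16 with at least 10 counts, 132 with all 21 libraries, 30 when thinned, 129 with the set covariate and 130 with TMM within each organ as well. With 1 library left out they ranged from 25 (without P16 replicate 2) to 192 (without P0 replicate 4), and with TMM within each organ from 28 to 155 (40 without P0 replicate 1, 153 without P16 replicate 1). The 59 in the cochlea became 98 with DESeq2, 134 with limma-voom, 114 in a fit of its own, 21 with at least 10 counts, 140 with the set covariate, 135 also without set A and 140 with TMM within each organ as well. With 1 library left out they ranged from 35 (without cochlea P0 replicate 2) to 89 (without SOC P0 replicate 4), and with TMM within each organ from 46 to 97.

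The replicate number as a block within each organ gave 69 differences (155 changes in the SOC, 61 in the cochlea), but the numbers do not pair the ages. P0 and P16 libraries of the same number had correlated deviations from their group means of 0.57, -0.56 and -0.67 in the SOC and of 0.02, 0.11, -0.01 and -0.04 in the cochlea, and not every sample correlated best with its own number.

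Depth is a limit, as 151 of the 483 miRNAs had a group with 3 counts or fewer in every library. With 3 or 4 libraries per group, strain, kit and organ inseparable, and 3 SOC library sets crossing the ages, a difference that was not called is not shown to be absent.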
